A study of Homo sapiens with 8 samples.

Results

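The RNA-binding proteins TIA1 and RBFOX2 were compared along human chromosome 19, using every peak of the deposited eCLIP lists that lies on it. These were 278 of 3215 TIA1 peaks and 203 of 4227 RBFOX2 peaks, 481 of 7442 peaks in all. The chromosome was chosen by its share of the peaks of each list. That share was 8.65% for TIA1 (95% Clopper-Pearson interval 7.70 to 9.67%) and 4.80% for RBFOX2 (4.18 to 5.49%), so this difference is given as a description and was not tested. All values come from HEK293T, an immortal cell line from human embryonic kidney expressing SV40 large T antigen, crosslinked with 600 mJ of ultraviolet light. For each protein there were 2 immunoprecipitated libraries (clip, with an antibody to the HA tag per the labels) and 2 input libraries with no antibody, and the authors joined these 4 into 1 list per protein. The labels do not describe the tagged constructs, their protocol mentions TIA1-bound beads even for RBFOX2 libraries, and they use both biological and technical for the replicates. Since each protein has 1 joint list with no value per replicate, no spread between replicates and no p-value can be given, and every difference between the proteins below has no replicate check. Intervals cover counting error only and treat neighbouring peaks as independent, which they are not.

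eCLIP crosslinks RNA to protein in living cells, and a peak marks a stretch of RNA recovered more often in the clip than in the input library. TIA1 binds U-rich RNA, often in introns beside weak splice donor sites and in 3′ untranslated regions, and acts in splicing, in translational silencing and in stress granules. RBFOX2 binds the element GCAUG near alternative exons and regulates their inclusion. Chromosome 19 is rich in short, GC-rich, highly expressed genes, and large clusters of zinc finger genes of the KRAB family lie on it beside the centromere and in the long arm. Each peak carries 2 values of the authors, taken from their ranges as a log2 fold of clip over input, which is above 3 for every peak, and a −log10 p, which stops at 400; both describe and rank peaks within a list here. Peaks are given by hg19 position, counted from 1, because no annotation or sequence of that build was at hand. Gene names, exon or intron location and sequences were therefore not analysed here.

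Across the 22 chromosomes with at least 50 peaks in each list, the ratio of the TIA1 share to the RBFOX2 share ran from 0.650 on chromosome 15 to 1.93 on chromosome 21, and chromosome 19 ranked second at 1.80. Chromosomes 16, 17 and 22, which are also gene-dense, had ratios of 1.31, 0.946 and 0.948. Peaks were next chained into loci, defined as runs of peaks of either list on a strand with gaps of at most 10 kb, so that clustered peaks count once. Chromosome 19 then held 131 loci with a TIA1 peak and 93 with an RBFOX2 peak, a ratio of shares of 1.54, above the other 21 chromosomes ranked. The next was chromosome 20 at 1.46, while chromosome 21 came to 1.16, chromosome 16 to 1.09, chromosome 17 to 1.11 and chromosome 22 to 1.16. By these counts the TIA1 excess of chromosome 19 was present in loci as well as in peaks, whereas that of chromosome 21 was smaller in loci. The loci are made of the same peaks by which chromosome 19 was chosen. Its rank by loci is therefore a description and no separate support, and no interval was computed for these ratios. TIA1 had 2.12 peaks per bound locus on chromosome 19 and 1.70 on the other chromosomes, against 2.18 and 2.08 for RBFOX2. Single chromosomes reached as many for TIA1, with 2.16 on chromosome 16 and 2.67 on chromosome 21.

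**Figure D1:**
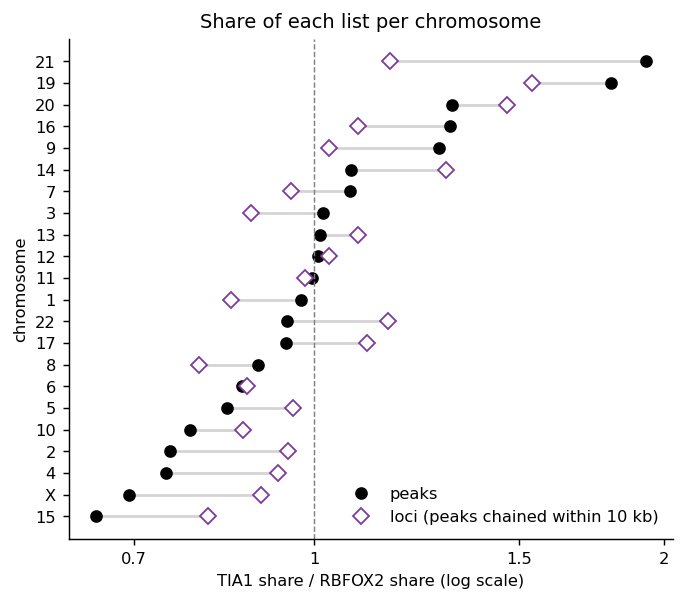
Each row is a chromosome with at least 50 peaks in each list; the horizontal axis (log scale) is the share of the TIA1 list divided by the share of the RBFOX2 list, for peaks (filled circles) and for loci of peaks chained within 10 kb (open diamonds). Chromosome 19 stands at 1.80 by peaks and 1.54 by loci, and chromosome 21 falls from 1.93 to 1.16.

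The arms of the chromosome were compared first, with the limit at 24.4 Mb. The short arm held 177 TIA1 peaks, 63.7% of those on the chromosome (95% Clopper-Pearson interval 57.7 to 69.3%), and 111 RBFOX2 peaks, 54.7% (47.6 to 61.7%). These intervals overlap, and the difference of 8.99 percentage points had an interval of -0.19 to 18.1 that includes 0, so it did not go beyond counting error for the lists as deposited. This changed with the limit on peaks: with a −log10 p of at least 5 the difference was 14.3 points (3.53 to 24.9), and with a log2 fold of at least 4, which leaves few peaks, 49.7 points (21.5 to 70.1). At the fold limit, 21 of the 39 RBFOX2 peaks left lay in 1 long-arm locus, from 47104530 to 47113643. All 22 RBFOX2 peaks of that locus also passed the −log10 p limit, which left 70 on the long arm. At the limits as deposited but without the 2 leading loci (this one and a TIA1 locus from 54962517), the difference was 6.97 points (-2.39 to 16.4). Without the densest window of each list it was 6.89 (-2.47 to 16.3). With peaks within 50 bases joined it was 3.61 points (-7.34 to 14.6). The long arm held 101 TIA1 and 92 RBFOX2 peaks. Against the whole lists, 5.51% of TIA1 and 2.63% of RBFOX2 peaks lay on the short arm, a ratio of 2.10, and 3.14% and 2.18% on the long arm, a ratio of 1.44. Scaled to the length of the TIA1 list, the RBFOX2 peaks would number 84.4 on the short arm and 70.0 on the long arm. The TIA1 excess over these numbers was 92.6 peaks on the short and 31.0 on the long arm, so 74.9% of it lay on the short arm. That arm held 63.7% of all TIA1 and 54.7% of all RBFOX2 peaks of the chromosome. No interval was computed for the 74.9% or for the ratios of the arms.

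No peak of either list lay near the arm limit. The last short-arm TIA1 peak ended at 19766871 and had a log2 fold of 3.39, and the last RBFOX2 peak ended at 19609376 with 3.08. On the long arm the first TIA1 peak began at 33182912 with a log2 fold of 3.58, and the first RBFOX2 peak at 33864608 with 3.51. The stretch of 13.4 Mb between them, which holds the centromere, carried no peak of either protein. With unknown sequencing depth, this is an absence from the lists and not a measured absence of binding.

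In windows of 1 Mb, 42 windows held a peak of either list, 20 on the short arm and 22 on the long arm. TIA1 peaks were in 41 of them and RBFOX2 peaks in 36, with 35 holding both. On the short arm all 20 windows held TIA1 peaks, with a median of 9 per window, and 18 held RBFOX2 peaks, with a median of 4.5. On the long arm the medians were 3 and 2. TIA1 exceeded the scaled RBFOX2 number in 32 of 42 windows, 16 of 20 on the short arm and 16 of 22 on the long arm, and fell below it in 10. By unscaled counts TIA1 led in 25 windows, RBFOX2 in 11 and neither in 6; on the long arm alone these were 11, 7 and 4. After scaling TIA1 was thus ahead in most windows of both arms, though in some long-arm windows by less than 1 peak. On the long arm 5 windows held 36.0 of the 51.4 peaks summed over its windows with an excess, and on the short arm 5 held 54.5 of 107. By unscaled counts TIA1 led in no more than 11 of the 22 long-arm windows. These windows hold the peaks by which the chromosome was chosen, and windows of other chromosomes were not counted.

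**Figure D2:**
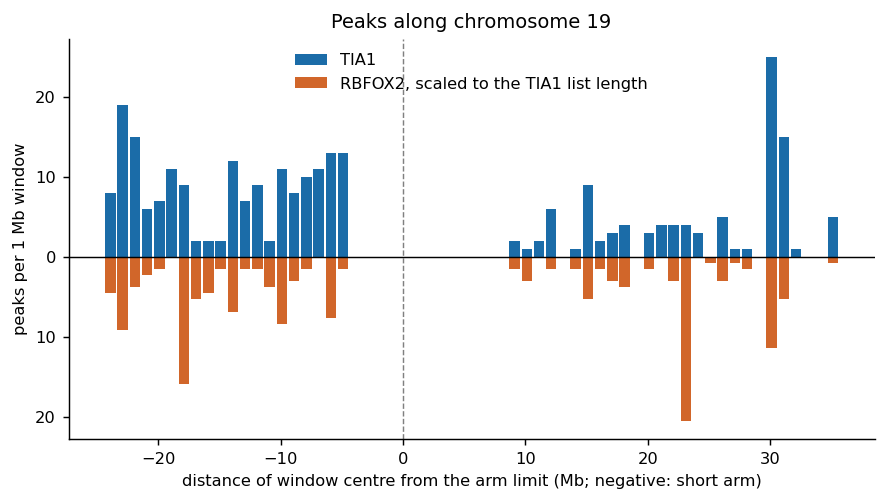
Bars give peaks per 1 Mb window along chromosome 19, TIA1 upward and RBFOX2, scaled to the length of the TIA1 list, downward; the horizontal axis is the distance of the window from the arm limit in Mb, negative on the short arm. TIA1 bars are longer in 32 of 42 windows, the tallest TIA1 bar holds 25 peaks, and the longest RBFOX2 bars stand in the window from 47 to 48 Mb and in that from 6 to 7 Mb.

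The 5 windows that led for TIA1 lay at 54 to 55 Mb, 19 to 20 Mb, 2 to 3 Mb, 5 to 6 Mb and 17 to 18 Mb. The first held 25 TIA1 and 15 RBFOX2 peaks, with all 25 TIA1 peaks on the plus strand. The window from 19 to 20 Mb held 13 and 2, and that from 2 to 3 Mb held 15 and 5. The windows from 5 to 6 Mb and from 17 to 18 Mb held 11 TIA1 peaks each and 0 RBFOX2 peaks. Together these 5 windows had 58.3 TIA1 peaks above the scaled RBFOX2 number, of 159 summed over the 32 windows with an excess. RBFOX2 led in the window from 47 to 48 Mb, with 27 peaks against 4 of TIA1, and in that from 6 to 7 Mb, with 21 against 9, all on the minus strand. The other 3 RBFOX2 windows held few peaks, with 7 against 2 from 7 to 8 Mb, 6 against 2 from 8 to 9 Mb and 4 against 1 from 34 to 35 Mb.

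Over the whole chromosome the strands held similar numbers of peaks in both lists, and the long arm as deposited held more on the plus strand. Plus-strand peaks made up 51.4% of TIA1 (95% Clopper-Pearson interval 45.4 to 57.5%) and 53.2% of RBFOX2 peaks (46.1 to 60.2%), against 52.9% and 50.5% on the other chromosomes. On the short arm the plus strand held 43.5% of TIA1 (36.1 to 51.1%) and 38.7% of RBFOX2 peaks (29.6 to 48.5%), where the TIA1 interval includes an even split. On the long arm it held 65.3% (55.2 to 74.5%) and 70.7% (60.2 to 79.7%). Part of the long-arm share lay in 2 large plus-strand loci: without them the long-arm shares were 54.5% for TIA1 and 59.1% for RBFOX2. In loci, the short arm had 43 with TIA1 on the plus and 44 on the minus strand, and 25 and 27 with RBFOX2, so counted by locus the strands of the short arm were nearly even. The long arm had 27 and 17 with TIA1, and 24 and 17 with RBFOX2.

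The 187 loci of the chromosome fell into 94 with TIA1 peaks alone, 56 with RBFOX2 peaks alone and 37 with both. The 94 TIA1 loci held 170 peaks, 61.2% of the TIA1 peaks of the chromosome, and 60 of them were a single peak. The 56 RBFOX2 loci held 87 peaks, 42.9% of RBFOX2 peaks, and 38 of them were a single peak. In the 37 loci with both proteins the counts were close, with 108 TIA1 and 116 RBFOX2 peaks, and TIA1 led in 9, RBFOX2 in 13 and neither in 15. These are unscaled counts, and a locus with a single protein can only add to that protein's number. Of the loci with TIA1 alone, 64 lay on the short arm and 30 on the long arm, and of those with RBFOX2 alone 29 and 27. Both proteins shared 28.2% of TIA1 loci and 39.8% of RBFOX2 loci on the chromosome, against 37.4% and 33.3% on the other chromosomes.

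**Figure D3:**
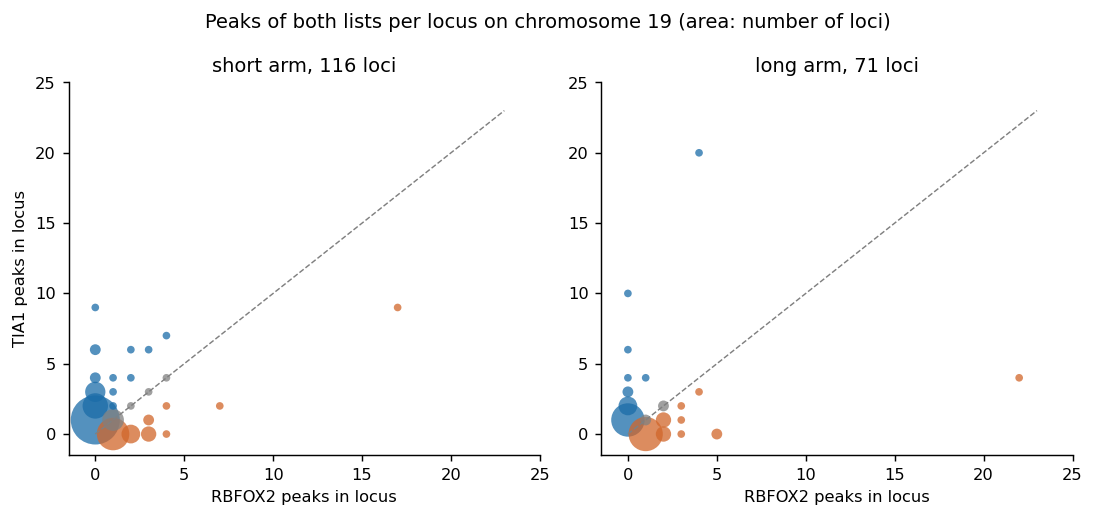
Each circle stands for the loci with a given number of RBFOX2 peaks (horizontal axis) and TIA1 peaks (vertical axis) on the short arm (left, 116 loci) and the long arm (right, 71 loci), with area proportional to the number of loci; blue marks more TIA1, orange more RBFOX2 and grey equal numbers. Most loci hold 1 peak of a single protein, and 3 loci with 20, 17 and 22 peaks of a protein stand apart.

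In unscaled counts, unlike the scaled excess of the arms, more TIA1 than RBFOX2 peaks were found in 103 loci, with a summed excess of 207 peaks. RBFOX2 led in 69 loci, with a summed excess of 132, which left a net excess of 75 TIA1 peaks. Loci with TIA1 alone were also common elsewhere, with 1081 of 3016 loci on the other chromosomes against 94 of 187 here. The 10 leading TIA1 loci held 69 of the 207, or 33.3%, and 61 loci contributed a single peak each. Of these 10 loci, 6 lay on the short arm and 8 had no RBFOX2 peak. The excess was thus made of a few large loci and many small ones.

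The leading locus lay on the plus strand of the long arm from 54962517 to 54969137, a span of 6621 bases with 20 TIA1 and 4 RBFOX2 peaks. Its TIA1 peaks had log2 folds from 3.04 to 4.37, with a median of 3.36, and −log10 p values up to 27.1. With peaks within 50 bases joined they formed 9 sites, the densest with 5 abutting peaks from 54967332 to 54967424. The highest fold, 4.37, belonged to a 20-base peak from 54967504 to 54967523, the only TIA1 peak of the locus that overlapped an RBFOX2 peak (54967518 to 54967543, log2 fold 3.34). An RBFOX2 peak from 54966737 to 54966746 directly followed a TIA1 site, so the proteins were adjacent there without overlapping.

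The next 2 loci held TIA1 peaks alone, scattered over kilobases. On the minus strand of the long arm, 10 peaks spread from 55741437 to 55756898, with log2 folds from 3.08 to 3.81 and −log10 p values of at most 12.4. On the minus strand of the short arm, 9 peaks spread from 19758416 to 19766871, with log2 folds from 3.002 to 3.57. Single peaks were short at both, with some of 2 to 5 bases. Their median folds of 3.16 and 3.05 lay close to the lowest TIA1 log2 fold on the chromosome, 3.001. Scattered loci of the same kind were those from 5210798 to 5218473 on the minus strand (6 TIA1 peaks), 39950224 to 39963856 on the plus strand (6) and 36209127 to 36223342 on the plus strand (4). A further one, from 16633862 to 16652685 on the minus strand, had 6 TIA1 and 2 RBFOX2 peaks.

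The remaining 3 of the 10 leading loci were compact, with no RBFOX2 peak within 10 kb on the strand. On the minus strand, 6 abutting peaks filled the 205 bases from 15443101 to 15443305, with log2 folds from 3.002 to 3.39 and −log10 p values up to 23.5. Another 4 abutting peaks filled the 256 bases from 2456677 to 2456932, with log2 folds from 3.07 to 3.89 and values up to 26.3. On the plus strand, the 4 peaks from 5690281 to 5690554 stood in 2 neighbouring pairs and had log2 folds from 3.16 to 3.28 and values up to 31.6. All 3 lay on the short arm, and their highest −log10 p values exceeded those of the 6 scattered loci, which reached at most 12.4.

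The loci that led for RBFOX2 included the one with the most peaks of a single protein. The locus from 47104530 to 47113643 on the plus strand of the long arm held 22 RBFOX2 and 4 TIA1 peaks. Its RBFOX2 peaks formed 3 sites: 4 peaks from 47104542 to 47104693, 12 from 47112555 to 47112939 and 6 from 47113499 to 47113643. Log2 folds ran from 3.75 to 4.60 in the first, from 4.24 to 6.19 in the second and from 4.09 to 4.89 in the third. The 4 TIA1 peaks had log2 folds from 3.04 to 3.56 and −log10 p values of at most 13.8, and 3 of them overlapped RBFOX2 peaks, at the first and the third site. The 12-peak site, which carried the highest RBFOX2 fold of the chromosome, had no TIA1 peak.

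The second RBFOX2 locus was the one in which the proteins overlapped most. On the minus strand of the short arm, from 6413487 to 6414683, it held 17 RBFOX2 and 9 TIA1 peaks, and 14 and 9 of these overlapped the other list. Joined within 50 bases, RBFOX2 formed sites from 6413487 to 6413618, 6413938 to 6414067, 6414250 to 6414280 and 6414556 to 6414643. TIA1 formed sites from 6413502 to 6413587, 6413943 to 6414069 and 6414578 to 6414683, each on an RBFOX2 site. At the middle TIA1 site, 6 TIA1 and 7 RBFOX2 peaks covered nearly the same bases. Within the RBFOX2 list the log2 folds were highest there and at the first site, from 3.56 to 4.17, and lowest at the last, from 3.03 to 3.09. Within the TIA1 list they ran from 3.13 to 3.91 at the first site and from 3.07 to 3.82 at the middle site, and stood at 3.67 at the last.

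The 3 other leading RBFOX2 loci were smaller and all on plus strands. That from 1205889 to 1206338 held 7 RBFOX2 peaks (log2 folds 3.04 to 3.32) and 2 TIA1 peaks at 3.04 and 3.96, both overlapping RBFOX2. That from 54378344 to 54379514 held 5 RBFOX2 peaks with log2 folds from 3.76 to 5.48 and no TIA1 peak. That from 54651997 to 54659310 held 5 RBFOX2 peaks with log2 folds from 3.26 to 3.61, again with no TIA1 peak. This rests on the chaining limit. A separate locus of 3 TIA1 peaks (log2 folds 3.28 to 4.19) ended at 54641709 on the same strand, a gap only slightly above 10 kb. The locus at 54378344 and the leading TIA1 locus at 54962517 lay on the same strand of the same 1 Mb window, and led for different proteins.

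**Figure D4:**
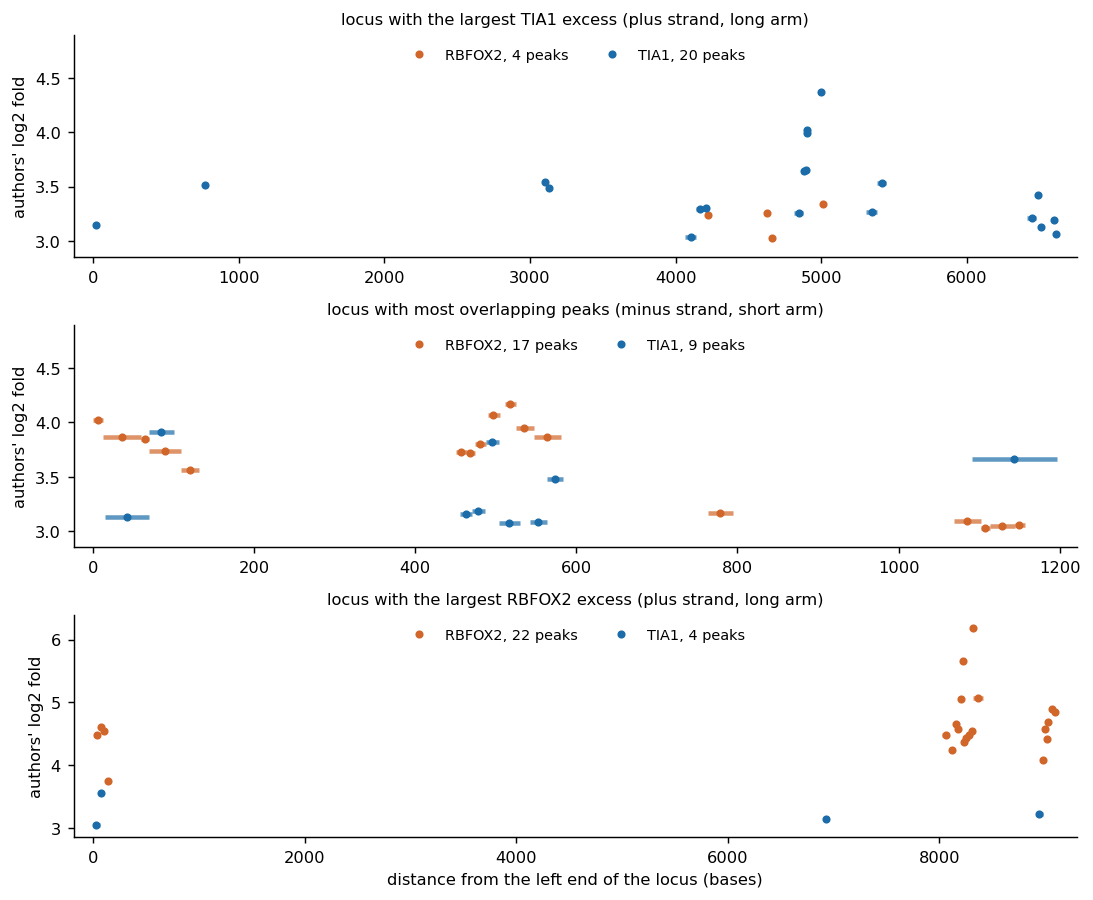
Each mark is a peak, drawn at its log2 fold within its own list (vertical axis) and spanning its width along the distance from the left end of the locus in bases (horizontal axis), TIA1 in blue and RBFOX2 in orange, for 3 loci. The top locus (54962517) is mostly TIA1, the middle one (6413487) has both proteins on the same sites, and the bottom one (47104530) is mostly RBFOX2 with log2 folds up to 6.19.

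The peaks of highest rank lay at different places in the lists. By −log10 p, which depends on depth and stops at 400, the first TIA1 peak of the chromosome lay on the minus strand from 39340505 to 39340581, at 73.2 with a log2 fold of 3.18. The peak that abuts it, from 39340472 to 39340504, had 57.6 and 3.02, and both overlapped RBFOX2 peaks. The others were on the plus strand from 1438806 to 1438822 (69.1, log2 fold 3.01) and from 13049458 to 13049571 (55.7, 3.28), neither of which overlapped RBFOX2. The last was on the minus strand from 59069853 to 59069962 (53.5, 3.95), which did. No TIA1 peak of chromosome 19 reached 400, while 65 of 2937 on the other chromosomes did, 22 of them on chromosome 1. This was not particular to chromosome 19, since chromosome 17 also had 0, chromosome 22 had 1 and chromosome 16 had 3. All 5 leading RBFOX2 peaks lay in the locus at 47104530, with 2 of them at 400 (47112785 to 47112827 and 47113549 to 47113569) and the others from 65.3 to 79.1.

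By fold, the first TIA1 peak was a 20-base peak near the end of the long arm, on the minus strand from 59069833 to 59069852, with a log2 fold of 5.03 (32.7-fold). It overlapped an RBFOX2 peak with a log2 fold of 3.05, from 59069830 to 59069976. The next 4 all lay on the short arm, with log2 folds of 4.88 (17186627 to 17186683, plus), 4.83 (1407629 to 1407662, plus), 4.82 (18433850 to 18433913, minus) and 4.82 (811940 to 811954, plus). Those at 17186627 and 1407629 had no RBFOX2 peak within 10 kb on the strand, and the other 2 overlapped one. The first RBFOX2 peaks by fold all lay on the long arm, with 6.19 (47112843 to 47112849) and 5.66 (47112751 to 47112760) in the locus at 47104530 and 5.48, 5.42 and 5.25 in that at 54378344, and none overlapped TIA1.

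Median folds on chromosome 19 were slightly lower than elsewhere in both lists as deposited. The median log2 fold of TIA1 peaks was 3.27 (95% interval from order statistics 3.22 to 3.32) against 3.36 (3.35 to 3.38) on the other chromosomes, and it was the lowest of the 22 chromosomes ranked. For RBFOX2 the medians were 3.41 (3.35 to 3.49) and 3.49 (3.47 to 3.51), whose intervals overlap. Which list's difference had an interval without 0 changed with the handling of peaks. As deposited the differences were -0.098 for TIA1 (-0.15 to -0.046) and -0.076 for RBFOX2 (-0.14 to 0.0018). With peaks joined they were -0.073 (-0.13 to 0.0017) and -0.16 (-0.25 to -0.081), and without peaks under 20 bases -0.072 (-0.13 to 0.016) and -0.087 (-0.18 to -0.0056). Folds of 4 or more on the log2 scale were seen at 22 TIA1 peaks of the chromosome, 7.91%, near the 9.21% of the whole list. For RBFOX2 they were seen at 39 peaks, 19.2%, near the 19.3% of the whole list. On the short arm were 16 of the 22 TIA1 peaks, 72.7% (95% Clopper-Pearson interval 49.8 to 89.3%), near the 63.7% of all TIA1 peaks of the chromosome. Of the 39 RBFOX2 peaks 30 lay on the long arm, which left 23.1% (11.1 to 39.3%) on the short arm, where 54.7% of all RBFOX2 peaks of the chromosome lay. Of those 30, 21 were in the locus at 47104530 and 4 in that at 54378344. The 22 TIA1 peaks were spread over 18 loci, with at most 2 in any of them. Without the 2 leading loci, 13.6% of long-arm RBFOX2 peaks reached a log2 fold of 4, against 32.6% with them and 8.11% on the short arm.

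As deposited, peaks on the chromosome were shorter than elsewhere. The median width was 37 bases for TIA1 (95% interval from order statistics 31 to 45) against 63 (60 to 66) on the other chromosomes, and 56 bases for RBFOX2 (45 to 64) against 71 (69 to 72). Among the ranked chromosomes only chromosome 21 had a shorter TIA1 median, of 25.5 bases, while chromosomes 16, 17 and 22 had 50, 60 and 55. RBFOX2 medians were shorter than on chromosome 19 on chromosome 22, at 49 bases, and on X, at 55.5. The RBFOX2 difference from the other chromosomes, -15 bases (-26.0 to -6.75), was -8 both without peaks under 20 bases (-15.3 to 3.05) and without the 2 leading loci (-18.0 to 2.20), and -13 with peaks joined (-24.4 to 0.15). All 3 of these intervals include 0, whereas the TIA1 difference of -26 stayed at -20.5 or further below 0 in the same alternatives. Peaks under 20 bases made up 28.8% of TIA1 and 19.7% of RBFOX2 peaks here, against 17.9% and 9.29% on the other chromosomes. The median −log10 p of TIA1 peaks was not lower with the shorter widths, at 8.16 against 7.31 elsewhere. Without peaks under 20 bases, 7.59% of the TIA1 list and 4.27% of the RBFOX2 list lay on the chromosome.

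**Figure D5:**
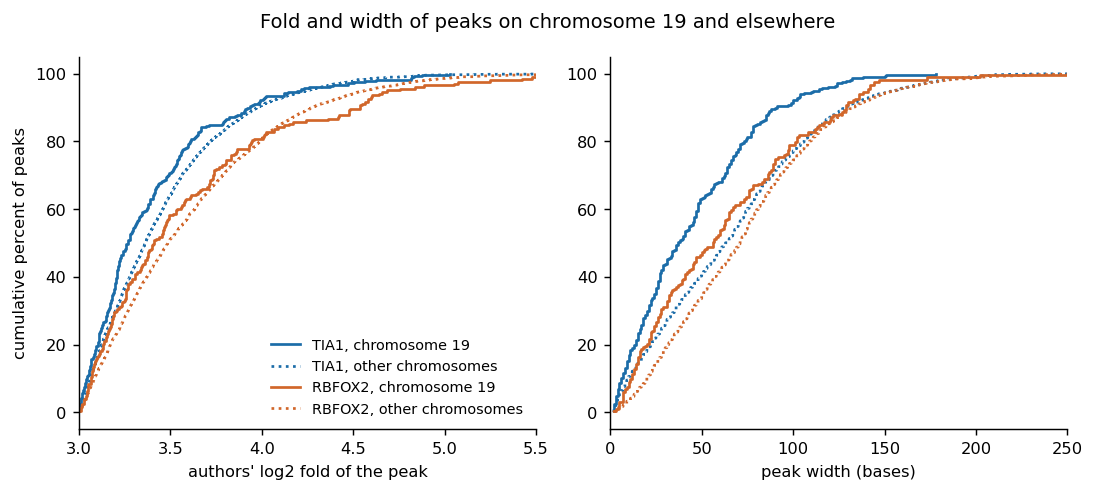
Curves give the cumulative percent of peaks up to a given log2 fold (left) or width in bases (right) for TIA1 (blue) and RBFOX2 (orange), on chromosome 19 (solid) and on the other chromosomes (dotted); the few highest values lie beyond the axes. The solid TIA1 curve lies to the left of its dotted curve in both panels, with medians of 3.27 against 3.36 and of 37 against 63 bases.

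Overlap of the proteins was set against the whole lists. On chromosome 19, 48 of 278 TIA1 peaks shared at least 1 base with an RBFOX2 peak on the strand, 17.3% (95% Clopper-Pearson interval 13.0 to 22.2%), where the whole TIA1 list had 24.0%. In the other direction 59 of 203 RBFOX2 peaks overlapped TIA1, 29.1% (22.9 to 35.8%), where the whole RBFOX2 list had 21.7%. The TIA1 share on chromosome 19 was 7.42 points below that of the other chromosomes, with an interval of -12.0 to -2.22, and the RBFOX2 share was 7.77 points above, with an interval of 1.49 to 14.7. Where at least 50% of each peak had to be shared, the differences were -4.49 (-8.36 to 0.15) and 4.05 (-0.85 to 9.95), and both intervals included 0. For TIA1 the interval also included 0 at a log2 fold of at least 4, at -9.85 (-14.0 to 5.92). In the remaining alternatives the TIA1 interval stayed below 0. Those differences ran from -8.44 (-13.3 to -2.96) within 50 bases to -6.85 (-12.4 to -0.38) without peaks under 20 bases. For RBFOX2 the interval also included 0 with peaks joined, at 4.83 (-2.41 to 13.2), and without peaks under 20 bases, at 5.74 (-0.92 to 13.3), and the difference was -5.03 (-6.81 to 4.11) at a log2 fold of at least 4. The number of peaks of the other list, which was relatively low for RBFOX2 and high for TIA1 on this chromosome, moves with these shares, and its part in them was not tested. The gene-dense chromosome 16 had 16.7% for TIA1 and 17.6% for RBFOX2, chromosome 17 had 20.3% and 18.8%, and chromosome 22 had 21.6% and 15.6%. The TIA1 share of chromosome 16 was thus near that of chromosome 19, whereas the RBFOX2 shares of all 3 were below it.

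The overlaps formed 68 pairs of peaks in 29 loci, 16 of them on the short arm. Pairs shared a median of 18.5 bases. TIA1 peaks that overlapped had a median log2 fold of 3.43 (3.23 to 3.65) and a width of 62.5 bases (41 to 75), against 3.25 (3.21 to 3.29) and 34 bases (27 to 41) for the 230 that did not. RBFOX2 peaks that overlapped were shorter than the others, with medians of 36 (26 to 52) against 62.5 bases (51 to 76), and their folds of 3.37 (3.26 to 3.70) and 3.42 (3.35 to 3.51) could not be told apart. Of the 59 overlapping RBFOX2 peaks, 14 lay in the locus at 6413487, whose RBFOX2 peaks had a median width of 15 bases. On the other chromosomes the RBFOX2 widths were closer, with medians of 67 (62 to 72) and 71 bases (70 to 73). The RBFOX2 log2 folds there were 3.43 (3.39 to 3.46) for overlapping and 3.51 (3.49 to 3.54) for other peaks, whose intervals do not overlap. TIA1 peaks differed there in the same direction as here, with 80 against 57 bases and log2 folds of 3.47 against 3.34. Wide peaks have more bases to overlap, and the part of width in these values was not tested.

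Crowding of peaks was near that elsewhere for RBFOX2, and as deposited somewhat greater for TIA1. A neighbour of its own list, at most 1 kb away on its strand, was found for 167 TIA1 peaks, 60.1% (95% Clopper-Pearson interval 54.1 to 65.9%), where the whole list had 53.7% and chromosome 16 had 60.6%. The difference from the other chromosomes was 7.02 points (0.74 to 13.1), and 4.04 (-2.55 to 10.5) without the 2 leading loci. It was 6.23 (-0.93 to 13.0) at a −log10 p of at least 5, and 6.33 (-1.12 to 13.8) without peaks under 20 bases. At a log2 fold of at least 4 the TIA1 difference was 1.69 (-18.4 to 25.3). With peaks within 50 bases joined it was larger than as deposited, at 8.44 (1.87 to 15.5). With a neighbour allowed within 10 kb it was larger still, at 12.7 (6.78 to 18.2). For RBFOX2 a neighbour at most 1 kb away was found for 133 peaks, 65.5% (58.5 to 72.0%), where the whole list had 66.5%. Joined within 50 bases, the chromosome held 202 TIA1 and 135 RBFOX2 sites, and 34 sites of each list overlapped a peak of the other.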

How the data were processed

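The series holds 8 eCLIP libraries of HEK293T cells, 2 clip and 2 input libraries for each of TIA1 and RBFOX2. The authors deposited 1 peak list per protein, which the sample descriptions tie to all 4 libraries of that protein. Per the submitters' processing notes, the tools included STAR 2.4.0i, cutadapt 1.14, SAMtools 1.6 and UMI-tools 1.0.0, with hg19 as the build. Which peak caller was used is not stated there. The lists have no header. The deposited values were taken, from their ranges, as a −log10 p that stops at 400 and a log2 fold of clip over input, both the authors' own value for each peak. No counts are given, so the depth is unknown.

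Values were computed with scipy 1.17.1, numpy 2.4.6 and pandas 2.3.3 in Python 3.11.15, and drawn with matplotlib 3.10.9. A peak that ends below 24.4 Mb is on the short arm. Windows of 1 Mb take a peak by its midpoint. RBFOX2 numbers were scaled by the ratio of list lengths, 3215 to 4227. Overlap means at least 1 shared base on the strand. Intervals of differences combine those of both shares or medians. The text names the 10 loci with the largest TIA1 minus RBFOX2 count and the 5 with the largest opposite count, the 5 windows at each end, and per protein the 5 peaks highest by −log10 p and by log2 fold. No test was run, since each group is 1 list. Alternatives were other limits on fold, −log10 p and width, joined peaks, other distances, equal list length, and leaving out dense windows or the 2 leading loci. The counting procedures were tested on simulated data. The members and rules were chosen with earlier results of these data known.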

Additional observations from a re-analysis of the deposited data

How the results depend on the processing

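Of 106 alternative values of 18 results, 86 stayed within the interval of the reported value or, for the count of loci, within 1.5 times it. Among 11 differences with 66 alternative values, 10 values changed sign; 17 intervals came to include 0 and 8 to exclude it. Of the sign changes, 6 were in strand or RBFOX2 crowding, where the reported interval already included 0, and lay outside the limit on fold: TIA1 strand 1.59 and RBFOX2 crowding 4.29 with peaks joined, RBFOX2 crowding 0.36 at a −log10 p of at least 5 and 3.71 within 10 kb, and RBFOX2 strand -3.39 and -4.22 points without the densest windows or the 2 leading loci. The other 4 came with a log2 fold of at least 4, which left 22 TIA1 and 39 RBFOX2 peaks on the chromosome. There the TIA1 median log2 fold on the chromosome was 0.036 above that elsewhere, and RBFOX2 overlap was 5.03 points below (-5.03). It also gave a TIA1 share of 7.43%, short-arm shares of 72.7% for TIA1 and 23.1% for RBFOX2 (49.7 points apart) and plus-strand differences from the other chromosomes of -10.1 and 25.1 points. Under it RBFOX2 crowding was 30.6 points above the other chromosomes, RBFOX2 log2 fold 0.25 above, and widths -7 bases for TIA1 and -38 for RBFOX2. The 10 leading loci then held 63.6% of an excess over 18 loci. Of the 39 RBFOX2 peaks left, 21 lay in the locus at 47104530 and 4 in that at 54378344, both on the plus strand of the long arm. The limit on fold leaves few peaks by construction. Beyond that the cause, including the part of these loci, was not tested. Leaving out peaks under 20 bases gave a TIA1 share of 7.59%. The short-arm shares were 70.0% and 63.1% without the densest window of each list, and 69.7% and 62.7% without the 2 leading loci. Joining peaks within 50 bases took the RBFOX2 log2 fold difference to -0.16. Leaving out the 2 leading loci, and all alternatives for width, were chosen after seeing the data. No paired analysis was possible because the lists hold no values of single replicates, and none could be left out. Depth is not given, so a site missing from a list cannot be read as unbound RNA.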
